A study of Sus scrofa with 48 samples.

Results

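The liver response to 3 days of fasting was described in gilts, young female pigs, that were homozygous for the N298 form of the melanocortin 4 receptor gene MC4R. Its members were chosen by the array titles alone, with no measured value: 6 liver arrays of fasted N298 gilts and 6 liver arrays of N298 gilts with free access to feed, 12 of the 48 arrays of the series. All 24 gilts were 6-month-old Yorkshires of a line bred for efficient use of feed, by selection on low residual intake, so both feeding groups and both genotypes shared that background. Each array read RNA of whole liver from 1 gilt on an Affymetrix porcine chip, a microarray on which a set of short probes reports 1 signal per transcript. The response was set beside that of fasted and fed gilts homozygous for D298, the wildtype form, in liver, and beside that of the fat of the same N298 gilts, with 6 arrays in each of those groups. Whether gilts of different genotype shared litters is not given in the sources used here.

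MC4R is a receptor of the brain through which melanocortin peptides restrain appetite and raise energy use, and the N298 form in pigs is known for its association with feed intake and fatness. In a liver without incoming feed, insulin is low and fatty acids arrive from adipose tissue. Hepatocytes then burn fatty acids in mitochondria and peroxisomes, make ketone bodies, make glucose from lactate, glycerol and amino acids, and shut down the synthesis of fatty acids and sterols. Transcription factors of the SREBP family, encoded by SREBF1 and SREBF2, drive the lipid synthesis genes, INSIG proteins hold SREBP back in the endoplasmic reticulum, and the receptor PPARA drives many genes of fatty acid oxidation.

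Checked against the tissue label, 13 of 18 hepatocyte markers were on the array, all 13 lay above the median probe set, and none was called different between fasted and fed N298 livers. Of all 6765 genes 4983 lay above it and 2.5% were called, so these counts say little about the markers. MC4R itself was dim, with a median signal of 13.6 in fasted and 17.8 in fed N298 livers, and its signal does not read the allele. The deposited signals had been scaled alike on every array, and the median signal of an array was 125 to 139 in fasted and 134 to 149 in fed N298 livers. On the log2 scale these array medians were lower in fasted livers by 0.12 on average, and the median difference over all probe sets was -0.08. When arrays were centred on their medians instead, 531 probe sets passed in place of 355, and 80.4% of them in place of 52.4% were higher. Control transcripts report RNA integrity as a 3′ over 5′ ratio of signals. The ratio of EF1A was lower in fasted livers by 0.15 on the log2 scale (2-sided exact permutation test, p = 0.0411, adjusted over the 3 controls 0.123, smallest possible 0.00216), against p = 0.597 for GAPDH and 0.63 for actin. Its part in the results was not tested. Samples were labelled as separate gilts, and the number of arrays limits the precision.

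Fasting changed 355 of 23999 probe sets in N298 liver at an adjusted p under 0.05 in limma, a linear model fitted to log2 signals with Benjamini-Hochberg adjustment. These were 1.48% of the probe sets tested, 186 higher (0.775%) and 169 lower (0.704%) in fasted livers. Of 6765 genes, each read by its brightest probe set, 169 were called, which is 2.5%: 103 rose (1.52%) and 66 fell (0.976%). A change of 2-fold or more was found for 24 of the rising and 26 of the falling genes. Of the called probe sets 145 carried no gene symbol in the annotation used. Among the 636 genes of 31 pathway lists, 35 rose and 28 fell. The list of cholesterol synthesis held 10 of those falls and the list of fatty acid oxidation and ketogenesis 10 of those rises. Of the 169 called genes, 95 stayed called in each of the 12 fits that left out 1 N298 liver array.

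Cholesterol synthesis had the lowest median of the 31 lists. Of 12 genes of the list on the array, 10 fell and none rose, with a median difference of -2.06 (log2, fasted minus fed), where all genes had a median of -0.03. The pathway builds sterols from acetyl-CoA, and the genes that fell span it from the opening condensations to the last reductions. ACAT2, the cytosolic thiolase that joins 2 acetyl-CoA, had signals of 228, 279 and 316 in fasted N298 livers (lowest, median and highest of 6), against 1605, 2223 and 3133 in fed N298 livers. Every fasted liver lay far below every fed one. The gene fell by 3.09 ± 0.19 (log2, SE, adjusted p = 4.77e-09), to 0.118 of the fed level. HMGCS1, the cytosolic HMG-CoA synthase of the next step, had 244, 262 and 312 in fasted N298 livers, against 1516, 2047 and 2997 in fed N298 livers, a difference of -2.96 ± 0.21 (adjusted p = 1.09e-08). The fasted livers were tightly grouped and the fed ones were not.

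Further along the pathway, SQLE, the squalene epoxidase, had 239, 418 and 589 in fasted N298 livers, against 2767, 3303 and 4071 in fed N298 livers, with no overlap and a difference of -3.06 ± 0.26 (adjusted p = 1.94e-07). FDPS, which makes farnesyl diphosphate, differed by -2.65, CYP51, the lanosterol demethylase, by -2.57, and TM7SF2, a sterol reductase, by -2.40. SC5D, a sterol desaturase, differed by -1.72 and MSMO1, the methylsterol monooxygenase, by -1.63. The other probe sets of MSMO1 read -1.46 and, at a dim signal, 0.81. FDFT1, the squalene synthase at the branch to sterols, had the smallest fall of the list at -0.69 (adjusted p = 0.0284), and its call was lost in 7 of the 12 fits that left out 1 array (highest adjusted p 0.0978). The sterol dehydrogenases NSDHL (-0.75, adjusted p = 0.0735) and HSD17B7 (-0.91, adjusted p = 0.338) were the other two on the array and did not pass.

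Of the regulators of the pathway, INSIG1 and SREBF2 fell and INSIG2 rose. INSIG1, an SREBP target that is itself sterol-regulated, had 3305, 4982 and 7384 in fasted N298 livers, against 8146, 10659 and 13651 in fed N298 livers, and fell by 1.11 ± 0.21 (log2, adjusted p = 0.00558). Its relative INSIG2, which has a liver transcript known in mice to rise on fasting and to be repressed by insulin, had 3207, 4419 and 5156 in fasted N298 livers, against 1351, 1551 and 1974 in fed N298 livers. The 2 genes thus changed in opposite directions, each without overlap between fasted and fed livers, and INSIG2 rose by 1.43 ± 0.17 (log2, adjusted p = 2.4e-05). SREBF2, which encodes the SREBP of sterol synthesis, fell by 0.76 ± 0.13 (adjusted p = 0.00234), with groups that overlapped. SREBF1, which encodes the SREBP of fatty acid synthesis, was read by a signal of 109, 205 and 250 in fasted N298 livers, against 117, 141 and 290 in fed N298 livers, and did not pass (0.21 ± 0.25, adjusted p = 0.783). NPC1, which exports cholesterol from lysosomes and was picked after its value was seen, fell by 0.81 (adjusted p = 0.000805).

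**Figure D1:**
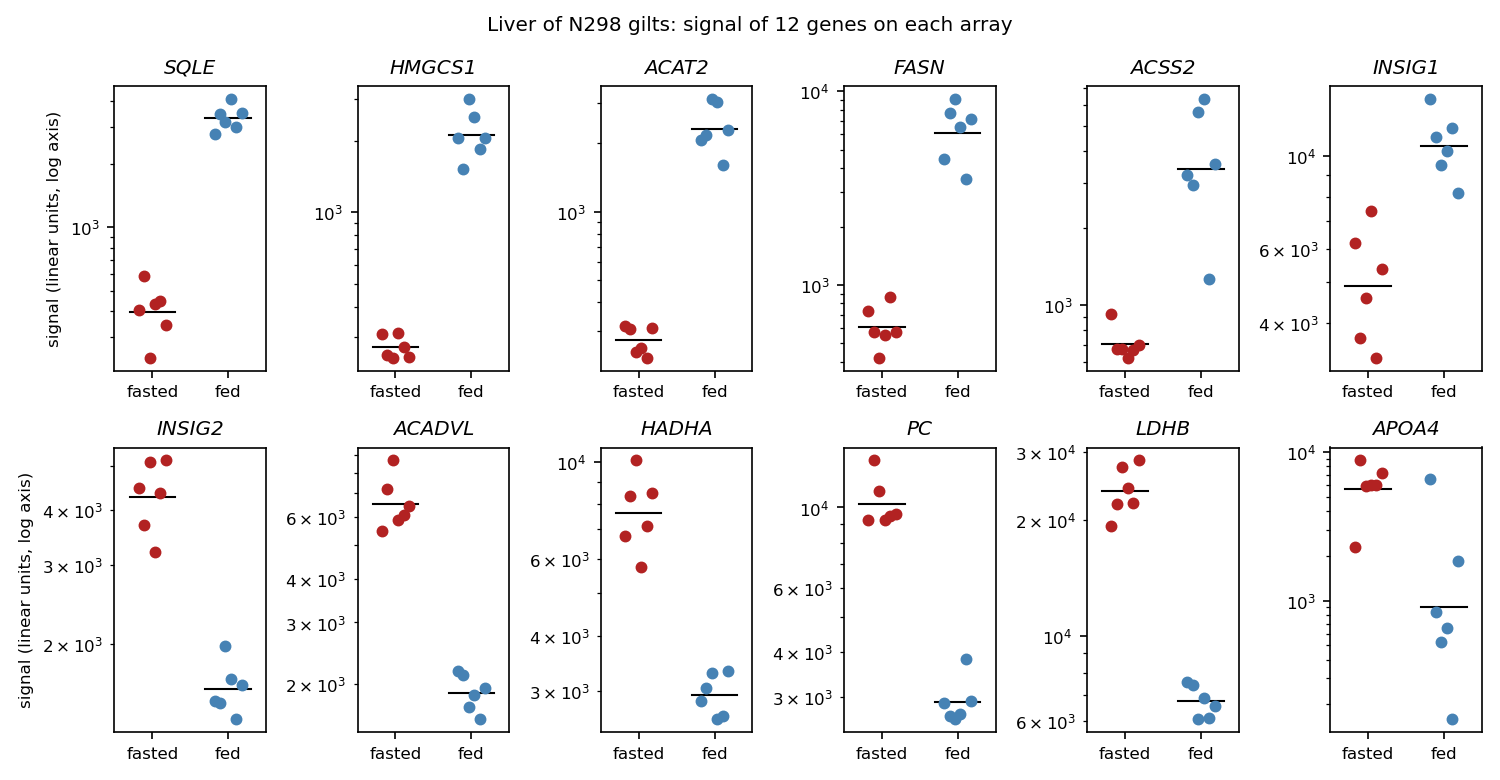
Signal of 12 genes on each of the 12 N298 liver arrays (linear units on a log axis), 6 fasted gilts in red at the left of each panel and 6 fed gilts in blue at the right; the bar is the geometric mean. In APOA4 the fed gilt at 6554 lies among the fasted ones. Most panel genes were named for a large called change, so the separation in the other panels follows in part from that choice.

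In fatty acid synthesis the falls were those of 4 genes. Of 14 genes on the array 4 fell and none rose, and the median was -0.50. FASN, the fatty acid synthase, had 418, 570 and 868 in fasted N298 livers, against 3537, 6866 and 9136 in fed N298 livers. All fasted livers lay below the lowest fed one, and the gene fell by 3.35 ± 0.25 (log2, adjusted p = 3.01e-08), to 0.0983 of the fed level. Its other 3 probe sets read -1.001, -2.75 and -2.40. ACSS2, which turns acetate into acetyl-CoA, had 622, 675 and 923 in fasted N298 livers, against 1266, 3373 and 6362 in fed N298 livers (-2.27 ± 0.28, adjusted p = 3.03e-05). ME1 and TKT, enzymes of NADPH and pentose supply, differed by -1.29 and -0.66. ME1 lost its call without fasted gilt 6, fed gilt 4 or fed gilt 6 (highest adjusted p 0.0618), and TKT in 6 of the 12 fits that left out 1 array (0.0856). The carboxylase ACACA (-0.78), the desaturases SCD (-1.31, adjusted p = 0.0864) and FADS1 (-0.89, adjusted p = 0.49) and the elongase ELOVL6 (0.61) did not pass.

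Among 12 genes of triglyceride assembly and VLDL export, 3 fell and none rose (median -0.26). LPIN2, a phosphatidate phosphatase, had 567, 701 and 1098 in fasted N298 livers, against 939, 1507 and 2123 in fed N298 livers (-1.02 ± 0.19, adjusted p = 0.00409), and the groups overlapped. DGAT1, which adds the last acyl chain, differed by -0.44 and lost its call in 8 of the 12 fits that left out 1 array (highest adjusted p 0.113), and also with no replicate block. PNPLA3, a lipid droplet hydrolase under SREBP control, had 2.98, 6.17 and 46.7 in fasted N298 livers, against 23.7, 208 and 374 in fed N298 livers. The gene was near the floor of the array in most fasted livers, so its difference of -4.17 ± 0.72 (log2, adjusted p = 0.0022) rests on low signals. APOB (0.01) and MTTP (-0.35), which form VLDL particles, did not pass.

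Fatty acid oxidation and ketogenesis held the most rises of any list. Of 28 genes 10 rose and 1 fell, with a median of 0.31, and all 11 stayed called in each of the 12 fits that left out 1 array. ACADVL, which opens the oxidation of long-chain acyl-CoA in mitochondria, had 5451, 6252 and 8679 in fasted N298 livers, against 1588, 1908 and 2177 in fed N298 livers. Fasted livers were all above fed ones, and the gene rose 3.45-fold (log2 1.79 ± 0.14, adjusted p = 3.01e-08). HADHA and HADHB, the 2 subunits of the mitochondrial trifunctional protein that carries out the following steps, rose by 1.38 ± 0.10 and 0.97 ± 0.11 (log2). HADHA had 5730, 7720 and 10059 in fasted N298 livers, against 2578, 2940 and 3326 in fed N298 livers, and HADHB had 10230, 10898 and 13494 in fasted N298 livers, against 4453, 5781 and 7074 in fed N298 livers. Neither gene overlapped between fasted and fed livers.

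The other rises of that list covered several positions of the same route. SLC25A20, the carnitine-acylcarnitine carrier of the inner membrane, rose by 0.83. ACADL and ACADS, acyl-CoA dehydrogenases for long and short chains, rose by 1.30 and 0.42, ACAD11, another member of that family, rose by 0.83, and ETFDH, which passes their electrons to ubiquinone, rose by 0.96 ± 0.10 (adjusted p = 4.54e-06). ECH1, an isomerase for unsaturated chains, rose by 1.20, and ACAA2, a thiolase, rose by 0.77. CPT1A, the carnitine palmitoyltransferase that gates entry, had 2487, 4930 and 6117 in fasted N298 livers, against 1940, 2941 and 3571 in fed N298 livers. Its groups overlapped and it did not pass (0.65 ± 0.23, adjusted p = 0.212). The auxiliary reductase DECR1 (-0.39), the auxiliary isomerase ECI1 (-0.24) and the hydroxyacyl-CoA dehydrogenase HADH (-0.14) did not pass either. The 1 fall was ACSL4, an acyl-CoA synthetase that prefers arachidonate, at -1.66 ± 0.33 (adjusted p = 0.00879), with 454, 609 and 941 in fasted N298 livers, against 794, 1895 and 4344 in fed N298 livers and an overlap between them.

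Of 18 peroxisomal genes 3 rose and none fell, while the median of 0.05 was near that of all genes. ABCD3, which brings acyl-CoA into peroxisomes, had 5215, 6172 and 7644 in fasted N298 livers, against 1327, 2862 and 3654 in fed N298 livers (1.29 ± 0.16, adjusted p = 4.37e-05), and its other two probe sets read 1.36 and 1.49. ACAA1, the peroxisomal thiolase, rose by 0.68 ± 0.12 (adjusted p = 0.00195), and PEX3, which inserts peroxisomal membrane proteins, by 0.69 with its call lost in 8 of the 12 fits that left out 1 array (highest adjusted p 0.104). Of 8 PPARA-responsive genes 1 rose. This was VNN1, a pantetheinase, which had 867, 2859 and 4442 in fasted N298 livers, against 440, 889 and 1891 in fed N298 livers, with overlap (1.56 ± 0.36, adjusted p = 0.029, lost in 7 of the 12 fits, highest 0.0915). PDK4, which inhibits pyruvate dehydrogenase, read 0.00 ± 0.18, and ANGPTL4, a secreted inhibitor of lipoprotein lipase, 0.01 ± 0.22. Both are commonly used as markers of PPARA activity in fasted rodents, and their fasted and fed signals overlapped fully. PPARA itself was dim, at a median signal of 81.3 in fasted and 58.4 in fed N298 livers.

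Of 11 lipid droplet genes 3 rose and none fell (median 0.67). CIDEB, a droplet protein of hepatocytes that takes part in VLDL lipidation, had 7522, 10008 and 10486 in fasted N298 livers, against 4018, 5455 and 6288 in fed N298 livers (0.86 ± 0.12, adjusted p = 0.000256), without overlap. The droplet coat protein PLIN3 rose by 0.73 and the lysosomal lipase LIPA by 0.82, and each lost its call in 8 of the 12 fits that left out 1 array (highest adjusted p 0.1003 for PLIN3 and 0.123 for LIPA). PLIN2, the main droplet coat of hepatocytes, had 376, 462.5 and 655 in fasted N298 livers, against 153, 310 and 342 in fed N298 livers. Its groups did not overlap, yet its difference of 0.77 ± 0.25 did not pass (adjusted p = 0.163). Among 16 apolipoprotein and lipoprotein genes LCAT, which esterifies cholesterol on lipoproteins, and APOA4, an apolipoprotein of triglyceride-rich particles, rose. LCAT rose by 0.85 ± 0.10 (adjusted p = 2.24e-05). APOA4 had 2294, 5980 and 8778 in fasted N298 livers, against 158, 750 and 6554 in fed N298 livers (2.62 ± 0.55, adjusted p = 0.013). The fed gilts were spread widely, and the highest of them lay within the fasted range. The call of APOA4 was lost with the 12 N298 arrays fitted alone (adjusted p = 0.0912 in limma), without trend in eBayes (0.0530) and without replicate number 2, 3 or 4 (highest 0.0980).

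**Figure D2:**
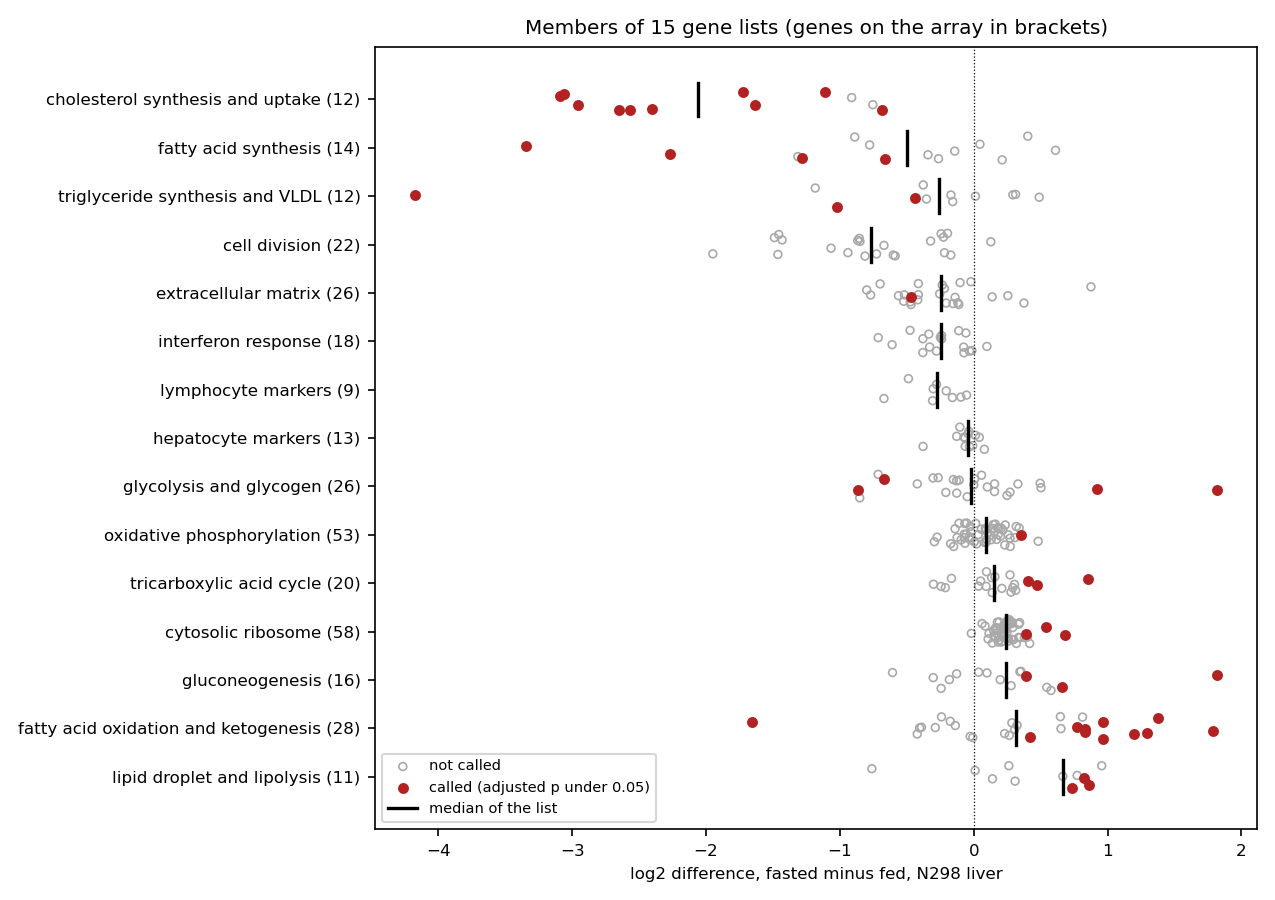
Log2 difference, fasted minus fed N298 liver, for each member of 15 gene lists; red points were called, open grey points were not, and the black bar is the median of the list. The cholesterol list lies wholly below 0 with a median of -2.06, whereas the list of fatty acid oxidation has a median of 0.31 and 1 called fall, ACSL4, at -1.66.

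PC and LDHB, which act on pyruvate and lactate, were among the largest rises. PC, the pyruvate carboxylase that makes oxaloacetate and opens gluconeogenesis from lactate, had 9251, 9527 and 13472 in fasted N298 livers, against 2607, 2798 and 3825 in fed N298 livers. The groups lay far apart, and PC rose 3.52-fold (log2 1.82 ± 0.13, adjusted p = 1.09e-08). LDHB, the lactate dehydrogenase subunit, had 19327, 23178 and 28528 in fasted N298 livers, against 6054, 6719 and 7589 in fed N298 livers (1.82 ± 0.14, adjusted p = 4.69e-08). Both subunits of the mitochondrial pyruvate carrier rose too, MPC2 by 0.88 ± 0.13 (adjusted p = 0.000349) and MPC1, named after its value was seen, by 0.53 ± 0.11 (adjusted p = 0.013). MPC1 lost its call without fasted gilt 3 or 6 (highest adjusted p 0.0511).

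Of 16 gluconeogenesis genes 3 rose and none fell (median 0.24). Besides PC these were SLC37A4, the transporter that feeds glucose 6-phosphate to its phosphatase (0.66 ± 0.13, adjusted p = 0.0102), and FBP1, the fructose bisphosphatase (0.39, adjusted p = 0.0386, lost in 10 of the 12 fits that left out 1 array, highest 0.124). PCK1, the cytosolic phosphoenolpyruvate carboxykinase and the textbook fasting gene of rodent liver, had 11840, 14374 and 18221 in fasted N298 livers, against 9703, 13717 and 19214 in fed N298 livers. The 2 ranges nearly coincided and the difference was 0.10 ± 0.15 (adjusted p = 0.844). PCK2, the mitochondrial form, read 0.55 ± 0.17 (adjusted p = 0.128), and the coactivator PPARGC1A -0.61 ± 0.29 (adjusted p = 0.373). Among 26 genes of glycolysis and glycogen 2 rose and 2 fell. PFKL, the liver phosphofructokinase, rose by 0.92 ± 0.14 (adjusted p = 0.000597), whereas PFKM, the muscle form, fell by 0.67 at a low signal and lost its call in 11 of the 12 fits (highest 0.141). GYS1, the muscle-type glycogen synthase, was dim and fell by 0.87, a call lost without fasted gilt 5, fed gilt 3 or fed gilt 4 (highest 0.0534), with the 12 N298 arrays alone and after quantile normalization. Its other two probe sets, also dim, read 0.05 and 0.31.

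Of 20 genes on the list of the tricarboxylic acid cycle 3 rose and none fell (median 0.15). IDH1, the cytosolic NADP-dependent isocitrate dehydrogenase, rose by 0.86 ± 0.16 (adjusted p = 0.00426), but it acts outside the mitochondrial cycle. FH, the fumarase, and SUCLG1, a subunit of succinyl-CoA ligase, rose by 0.47 and 0.41, and lost their calls in 10 and 11 of the 12 fits that left out 1 array (highest adjusted p 0.0906 and 0.144). Of 53 genes of oxidative phosphorylation 1 was called, the ATP synthase subunit ATP5H (0.35, lost in 10 of the 12 fits, highest 0.136). With arrays centred on their medians the counts of rises in these 2 lists were 3 and 4, and after quantile normalization 1 and 0.

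Of 34 genes of amino acid breakdown and the urea cycle 2 rose and 1 fell: PCCA, a subunit of propionyl-CoA carboxylase (0.50 ± 0.10, adjusted p = 0.00881), BCKDHB of the branched-chain keto acid dehydrogenase (0.38, lost in 9 of the 12 fits, highest adjusted p 0.111) and GLUL, the glutamine synthetase (-0.87, lost in 11, highest 0.127). The calls of BCKDHB and GLUL were also lost with no replicate block and with the number as a random block. In the growth hormone and IGF list IGFBP2, an IGF binding protein, rose by 1.001 ± 0.24 (adjusted p = 0.0359, lost in 7 of the 12 fits, highest 0.115), and IGF1 read -0.67 ± 0.30 (adjusted p = 0.335). None of 14 genes of insulin and FOXO signalling was called. SGK1, a kinase induced by glucocorticoids, had 475, 656 and 761 in fasted N298 livers, against 949, 1080 and 1248 in fed N298 livers, and fell by 0.79 ± 0.11 (adjusted p = 0.000159). Of 13 glucocorticoid-responsive genes 2 fell, SGK1 and PER1, and the list median was -0.38. Of 7 clock genes 2 fell, with a median of -0.56. These were PER1 and BHLHE40, which fell by 0.81 and 0.999, and lost their calls in 8 and 9 of the 12 fits (highest 0.083 and 0.124). A dim other probe set of BHLHE40 read 0.68. SLC10A1, the bile acid uptake carrier of hepatocytes, fell by 0.52 (lost in 8, highest 0.115).

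Of 32 genes of xenobiotic metabolism 1 rose and 1 fell, the exporter ABCB1 (0.63, lost in 6 of the 12 fits, highest adjusted p 0.0642) and the cytochrome P450 CYP2D25 (-0.48, lost without fasted gilt 6, at 0.0523). Another bright probe set of CYP2D25 read -0.0033 (adjusted p = 0.995), and the call was lost too with the 12 N298 arrays alone and with centred arrays. ORM1, an acute phase glycoprotein, fell by 0.40 among 25 plasma protein genes (lost in 10, highest 0.117, and with no replicate block), and POSTN, a matrix protein, by 0.47 among 26 matrix genes (lost without fasted gilt 1 or 6 or fed gilt 2 or 6, highest 0.0586). No member was called in the lists of antioxidant genes (21 genes), endoplasmic reticulum folding (21), heat shock (17), proteasome (33), autophagy and lysosome (23), complement (20) and melanocortin-related receptors (11).

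Several lists with few or no calls ran mostly one way. Of all 6765 genes, 3082 were higher and 3683 lower in fasted than in fed N298 livers. Of 58 cytosolic ribosomal protein genes 57 were higher in fasted than in fed N298 livers, with a median difference of 0.24, but only RPLP2, RPS12 and RPS15 were called, at 0.68, 0.54 and 0.39. RPS12 had 21235, 24844 and 27721 in fasted N298 livers, against 15052, 17070 and 17800 in fed N298 livers, with no overlap (adjusted p = 0.00103), and RPS15 lost its call in 7 of the 12 fits that left out 1 array (highest 0.0937). The median was 0.17 after quantile normalization with 3 calls, and 0.36 with centred arrays with 19 calls. Translation factors EIF3K, EIF3E and EEF1B2, named after their values were seen, rose by 0.49, 0.49 and 0.44 (EIF3E lost in 9 of the 12 fits). Genes of a list share arrays and are not independent of each other.

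In the other direction, 21 of 22 cell division genes were lower in fasted N298 livers, with a median of -0.77 and none called. AURKA, the mitotic kinase with the smallest p, had 7.81, 23.2 and 88.1 in fasted N298 livers, against 44.5, 79.1 and 305 in fed N298 livers, a dim signal with overlapping groups (-1.95 ± 0.52, adjusted p = 0.066). Of 18 interferon response genes 17 were lower, with a median of -0.24 and none called, TAP1 reading -0.38 (adjusted p = 0.407). Of 15 lymphocyte markers 9 were on the array, and all 9 were lower too, with a median of -0.28 and none called, and their summed signal was 1067 to 1816 in fasted and 1260 to 2129 in fed N298 livers. The T cell receptor component CD3E read -0.67 ± 0.20 (adjusted p = 0.105). In whole liver, fewer cells of a type and less RNA per cell cannot be told apart. After quantile normalization and with centred arrays the medians were -0.58 and -0.65 for cell division, -0.22 and -0.13 for the interferon genes, and -0.15 and -0.16 for the lymphocyte markers. The matrix list had 22 of 26 genes lower (median -0.24, and -0.13 with centred arrays), and the list of acute phase and plasma proteins 21 of 25 lower (median -0.06, and 0.05 with centred arrays).

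Markers of other cells also leaned one way with no call. Of 12 skeletal muscle markers 11 were higher in fasted N298 livers, with a median of 0.46, and their summed signal was 4051 to 10350 in fasted and 2495 to 6455 in fed N298 livers. The median of these muscle markers was 0.42 in D298. Of 9 macrophage markers 8 were lower (median -0.10, and 0.02 with centred arrays), and of 8 pancreas acinar markers 7 were lower (median -0.52). The part of these cells in the results was not tested. Summed signals of macrophage, endothelial, stellate, erythroid, neutrophil, adipocyte, muscle and pancreas markers overlapped between fasted and fed livers, and no member of the 12 marker lists was called.

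Several of the largest changes lay outside these pathways. PMM1, a phosphomannomutase of mannose metabolism, had 233, 580 and 1012 in fasted N298 livers, against 32.2, 104 and 164 in fed N298 livers, and rose 5.62-fold (log2 2.49 ± 0.40, adjusted p = 0.00109). NNAT, the imprinted gene neuronatin, had 137, 392.1 and 883 in fasted N298 livers, against 10.3, 57.4 and 95.7 in fed N298 livers, with a difference of 3.10 ± 0.46 (adjusted p = 0.000411) that starts from a dim signal. Both genes were separated fully between fasted and fed livers. A pair of genes of retinoid metabolism rose: DHRS4, a retinal reductase, by 1.93 ± 0.17 (adjusted p = 2.26e-07) and RETSAT, the retinol saturase, by 1.40 ± 0.16 (adjusted p = 1.2e-05). DHRS4 had 4105, 5791 and 7302 in fasted N298 livers, against 1153, 1504 and 2209 in fed N298 livers. MDFIC, an inhibitor of MyoD-family transcription factors, rose by 1.63, and its other probe set read 1.58. The uncharacterised LOC100624460 rose by 1.82 ± 0.34 (adjusted p = 0.00532). DHRS7, a short-chain dehydrogenase, fell by 1.79 ± 0.20 (adjusted p = 1.2e-05).

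The 6 fasted N298 gilts were placed by the extent of their response. For each array, genes called with at least a 2-fold change were taken from the fit without that array, and the array was placed between the fed mean (0%) and the fasted mean (100%) of the other gilts. Fasted gilt 1 sat at a median of 73.4% over 62 genes, at 80.7% for rises and at 67.2% for falls. The other fasted gilts sat at medians of 90.4% to 111%, and fed gilts at -2.53% to 12.3%. This measure is a description with no test. Without fasted gilt 1, 336 probe sets and 171 genes were called, against 355 and 169 with it, without fasted gilt 3 the numbers were 234 and 113, and without fasted gilt 6 they were 223 and 109.

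**Figure D3:**
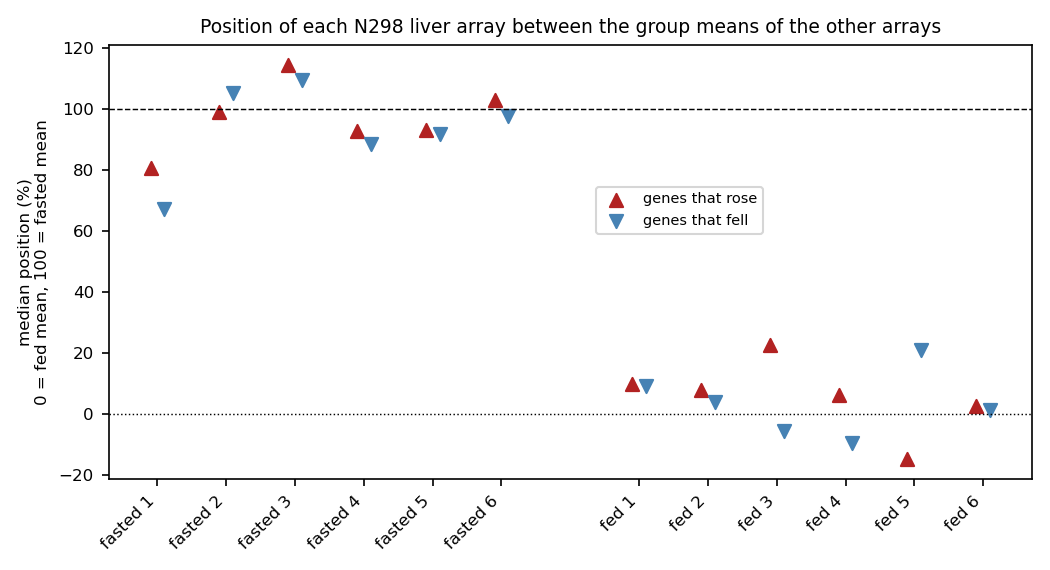
Median position of each N298 liver array between the fed mean (0%) and the fasted mean (100%) of the other arrays, with upward triangles for genes that rose and downward triangles for genes that fell. Fasted gilt 1 lies lowest of the fasted gilts, at 80.7% for rises and 67.2% for falls.

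The design asks whether the receptor genotype alters the fasting response. In D298 liver the same model called 391 probe sets (1.63%) and 192 genes (2.84%), 95 higher (1.4%) and 97 lower (1.43%). Of the genes called in N298, 92 were called in D298 as well, which is 54.4% of the N298 calls and 47.9% of the D298 calls, and all 92 moved in the same direction, 49 up and 43 down. No gene was called with opposite signs, and 164 of the 169 N298 calls had the same sign in D298. The direct test of the difference called none of 23999 probe sets (0%) in limma, with a smallest adjusted p of 0.850, while 1390 probe sets and 446 genes had an unadjusted p under 0.05. The median SE of that difference was 0.24 on the log2 scale, so modest differences between genotypes were not detectable with these arrays. Larger differences could be missed too. On simulated data 40% of probe sets changed 2-fold were called in the N298 liver comparison, whose median SE was 0.17.

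For sterol synthesis the list median was -2.06 in N298 and -2.04 in D298, and the responses of SQLE, ACAT2 and HMGCS1 differed between genotypes by -0.16 ± 0.37, -0.02 ± 0.26 and -0.06 ± 0.29. For fatty acid oxidation the list median was 0.31 in N298 and 0.04 in D298, and 24 of 28 members had the higher value in N298. Over all genes 2887 of 6765 had the higher value in N298. The count was 43 of 53 in oxidative phosphorylation and 6 of 12 in the cholesterol list. HADHA rose by 1.38 in N298 and by 1.07 in D298 (difference 0.31 ± 0.14), and ETFDH by 0.96 in N298 and 0.58 in D298 (0.39 ± 0.14). INSIG2 rose by 1.43 in N298 and by 0.75 in D298 (difference 0.69 ± 0.24), and DHRS4 by 1.93 in N298 and 1.26 in D298 (0.67 ± 0.24). In limma the adjusted p of the difference was 0.850 for each of HADHA, ETFDH, INSIG2 and DHRS4. These genes were named for their change in N298, and that choice alone favours a smaller value in D298. Their values therefore cannot show a stronger response in N298. Of the 169 genes called in N298, 126 had the larger change in N298. Of the 192 genes called in D298, 49 did. Among the 92 shared genes, 35 of 49 rises and 14 of 43 falls were larger in N298. These counts moved with the setting. Without fasted gilt 1 the counts were 43 of 52 rises and 24 of 42 falls. Without replicate number 5 they were 27 of 38 and 21 of 42, and with centred arrays 41 of 56 and 8 of 30.

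In D298 no member of the ribosomal, cell division, interferon and lymphocyte lists was called. Of all genes 2.84% were called in D298, so this absence says little about the lists. All 58 ribosomal protein genes had a higher value in N298 than in D298, where the median was 0.00. Over all genes 2887 of 6765 had the higher value in N298. The median of the interferon genes was -0.24 in N298 and 0.17 in D298, with 1 of 18 higher in N298. That of the lymphocyte markers was -0.28 in N298 and 0.18 in D298, with none of 9 higher in N298. Cell division genes were lower in both genotypes, with medians of -0.77 in N298 and -0.42 in D298. The median of all genes was -0.03 in N298 and 0.04 in D298, a shift in the same direction as that of the immune lists and opposite to that of the ribosomal genes. These medians were not tested against each other.

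Ranked by unadjusted p among brighter genes, the responses most above those of D298 were IGFBP1, FGGY, RNFT1, RPS15 and PMPCB, none called different between genotypes. IGFBP1, an insulin-repressed IGF binding protein, read 0.42 ± 0.23 in N298 and -0.89 ± 0.23 in D298 (difference 1.31 ± 0.33), and N298 signals of 7230, 9638 and 16244 in fasted livers overlapped with 3684, 8328 and 16420 in fed ones. FGGY, a carbohydrate kinase, rose by 0.91 ± 0.17 in N298 (adjusted p = 0.00396) and read -0.01 in D298 (difference 0.92 ± 0.23). PMPCB, which trims imported mitochondrial proteins, rose by 0.41 in N298 and read -0.03 in D298 (difference 0.45 ± 0.12). In the other direction stood LOC100519643, LAPTM5, THOC5, SMAP2 and TIMP2, none called in N298. LAPTM5, a lysosomal protein of blood cells, read -0.51 ± 0.14 in N298 (adjusted p = 0.0697) and 0.32 in D298 (difference -0.82 ± 0.19). Among called genes SGK1 fell by 0.79 in N298 and read -0.25 in D298 (difference -0.55 ± 0.15). GYS1, whose other probe sets did not fall in N298, read -0.87 in N298 and 0.15 in D298 (difference -1.02 ± 0.26).

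**Figure D4:**
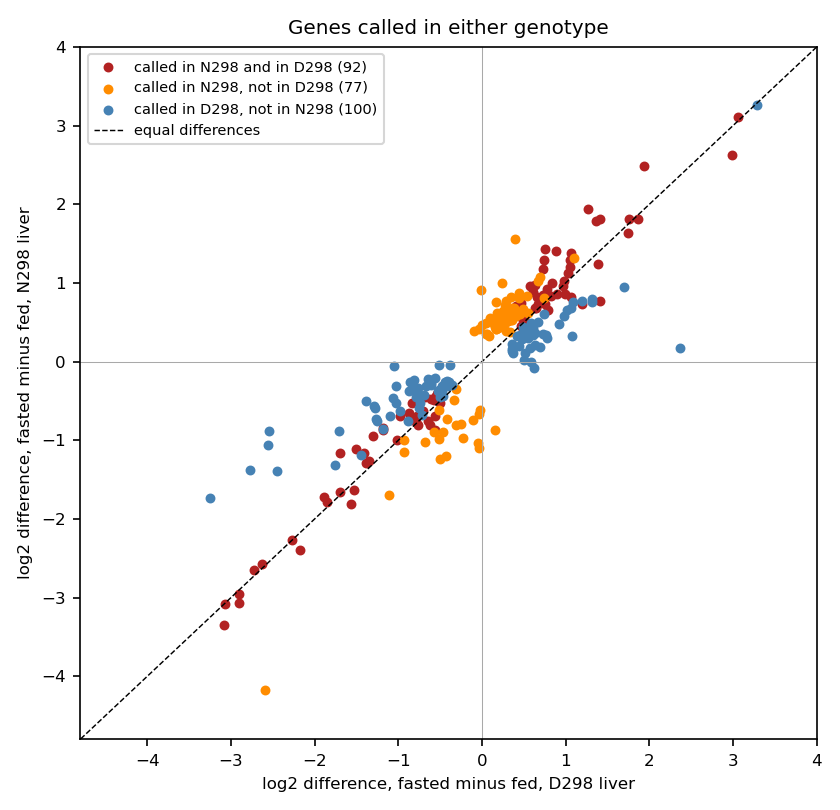
Log2 differences, fasted minus fed, of the 269 genes called in N298 or D298 liver, with N298 on the vertical and D298 on the horizontal axis and the dashed line at equality. The 92 genes called in both genotypes, in red, lie in the upper right and lower left corners.

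The fat of the same N298 gilts answered fasting with many more changes, 1503 genes (22.2%), 637 higher (9.42%) and 866 lower (12.8%). Liver and fat shared 67 called genes, which is 39.6% of the liver calls and 4.46% of the fat calls. Of these, 18 rose in both tissues, 27 fell in both, 20 rose in liver and fell in fat, and 2 fell in liver and rose in fat. The tissue difference, tested over liver and fat arrays together with each gilt as a random block, called 944 genes (14%), among them 94 of the 169 liver calls: 71 of the 103 rises and 23 of the 66 falls. These 169 genes were chosen for their change on the same liver arrays, and that choice alone favours a called tissue difference. Their share therefore cannot be set against the 14%.

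FASN fell by 3.35 in liver and by 3.42 in fat (tissue difference 0.08 ± 0.36, adjusted p = 0.937), and ACSS2 fell by 2.27 in liver and by 2.70 in fat. HMGCS1 differed by -2.96 in liver and by -0.40 in fat (tissue difference -2.55 ± 0.30, adjusted p = 4.87e-08) and SQLE by -3.06 in liver and -0.67 in fat (-2.39 ± 0.37, adjusted p = 1.53e-05), whereas SC5D fell by 1.72 in liver and 1.73 in fat. Of the oxidation genes ACADVL rose by 1.79 in liver and read -0.24 in fat (tissue difference 2.03 ± 0.19, adjusted p = 2.05e-10), and ACADL rose by 1.30 in liver and fell by 0.43 in fat. HADHA rose by 1.38 in liver and by 0.46 in fat. Over the respiratory chain list 1 of 53 genes was called in liver, a rise, and 45 of 53 in fat, all falls.

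The widest opposite changes were those of PGLYRP2, a secreted amidase that cleaves bacterial peptidoglycan, with 5330, 6294 and 7349 in fasted N298 livers, against 3153, 3525 and 4356 in fed N298 livers. It rose by 0.81 ± 0.13 in liver and fell by 3.25 in fat (tissue difference 4.06 ± 0.34, adjusted p = 9.14e-12). MPC2 rose by 0.88 in liver and fell by 1.28 in fat, and BCKDHB rose by 0.38 in liver and fell by 1.54 in fat. RCN1, a calcium-binding protein of the secretory route, rose by 0.60 in liver and fell by 1.22 in fat (its liver call was lost in 9 of the 12 fits that left out 1 array, highest adjusted p 0.148). The reverse held for BHLHE40, which fell by 0.999 in liver and rose by 0.68 in fat, and for ACSL4, which fell by 1.66 in liver and rose by 0.46 in fat. ANGPTL4, which read 0.01 in liver, rose by 1.47 in fat (adjusted p = 0.0068).

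**Figure D5:**
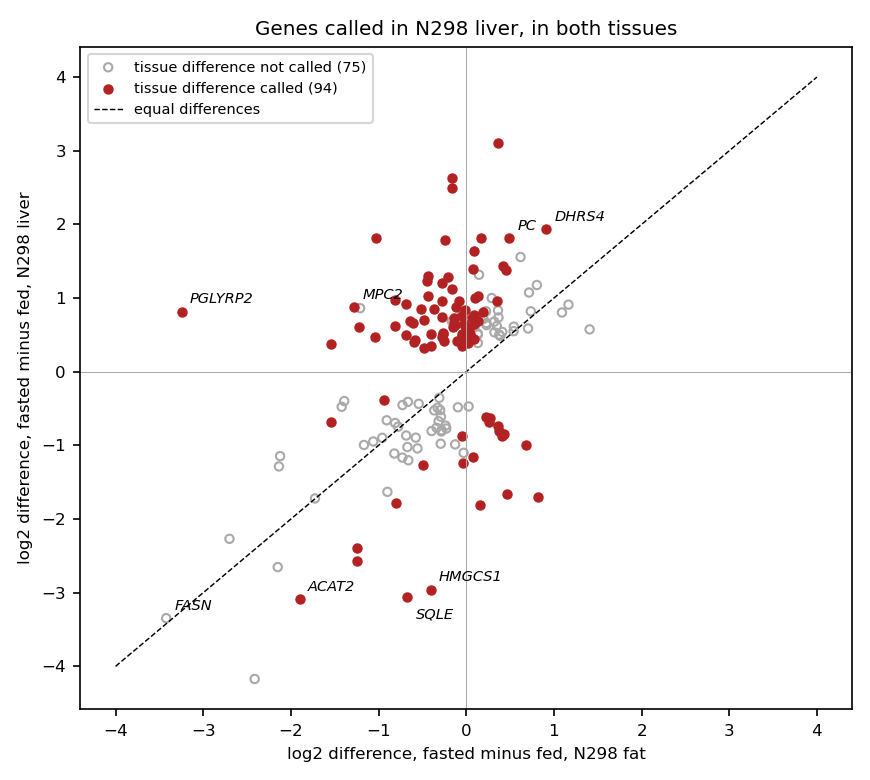
Log2 differences, fasted minus fed, of the 169 genes called in N298 liver, with liver on the vertical and fat of the same gilts on the horizontal axis; red points had a called tissue difference (94 genes) and the dashed line marks equality. FASN lies near the line at -3.35 in liver and -3.42 in fat, whereas HMGCS1 and SQLE lie well off it. The genes were chosen for their change in liver, and that choice alone favours points off the line.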

How the data were processed

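Each of 24 gilts gave 1 liver and 1 fat array. Per the submitters' processing notes, signals were made with affy and MAS5, with no versions given. The deposited values are linear signal intensities, 1 for every probe set on an array, and had been brought to a common level: trimmed of 2% at each end, they averaged 500 on every array. Detection calls, which say whether a probe set lay above background, were not used here, so dim signals are named as such. No sequence was used.

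Log2 was taken of the signals as deposited. The table has 24123 probe sets, of which 124 are controls, and all the other 23999 entered the tests. A single gene was named by the array's annotation for 10069 of them, more than 1 for 198, and no gene for 13732. By gene ID 9961 matched the pig gene table, and no symbol changed. The probe set that was brightest over the 24 liver arrays stood for each of 6765 genes, 2261 of which had more than 1.

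Liver arrays were fitted in R 4.3.3 with limma 3.58.1 (a trended eBayes prior after lmFit). Terms were the 4 combinations of genotype with feeding, plus 6 block levels from the replicate numbers, because the submitters describe blocks. Contrasts were N298 fasted minus N298 fed, the D298 equivalent, and the N298 minus D298 difference of both. Fat was fitted likewise, and the tissue difference on all arrays together with gilt as random effect (correlation 0.0841). P-values were 2-sided and adjusted over all probe sets by Benjamini and Hochberg, calls were made at an adjusted p under 0.05, and SE is that of the model. The samples are separate gilts per the labels.

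Members and gene lists were chosen with earlier results of these data known. Named genes were the 12 largest rises and 12 largest falls among called genes brighter than the median probe set whose 6 same-number pairs moved alike, up to 4 and 2 members per list by p, the smallest p of a list with none called, a set fixed by name, and the clearest genotype and tissue differences. The text also gives further list members that these rules did not pick, such as HADHB, SLC25A20 and CD3E. Some others are said in the text to have been named after their values were seen.

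Alternatives were another block, the 12 arrays alone, quantile normalization, median-centring, brighter probe sets only, 32 added before log2, no trend, array weights, and leaving out each number or each array. On simulated data, 14% of 50 probe sets changed 1.5-fold, 40% of those changed 2-fold and 72% of those changed 4-fold were called in the N298 liver comparison over 23999 probe sets, with 7 false calls, so a missing call does not show that a gene kept its level. Tables used pandas 2.3.3 and figures Matplotlib 3.10.9 in Python 3.11.15.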

Additional observations from a re-analysis of the deposited data

Results flagged for a closer look

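In 15 of 198 groups of 6 N298 livers (99 named genes, fasted and fed) 1 array stood apart from the other 5 by Dixon's criterion, which chance alone does in about 1 group in 20. Of the 15 arrays so marked 6 were fasted gilt 1 and 4 were fed gilt 5, and no cause was tested.

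Fasted gilt 1 had the highest fasted signal of ACSS2 (923.3, others 622 to 700) and of MSMO1 (9423, others 5040 to 6113), and the lowest of ECH1 (2283, others 3015 to 3434), CIDEB (7522, others 9538 to 10486), APOA4 (2294, others 5916 to 8778) and the complement regulator CD46 (1511, others 1653 to 1730). In the first 5 of these genes, all called, its signal lay on the side of the fed livers. Fed gilt 5 had the highest fed signal of PC (3825, others 2607 to 2933) and the lowest of ACAA1 (8626, others 12041 to 14144), PEX3 (1150, others 1904 to 2356) and PPARGC1A (438.9, others 835 to 1212).

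Single arrays also stood apart in PEX3 in fasted gilt 6 (3990, others 2662 to 3043), SUCLG1 in fasted gilt 3 (11199, others 8623 to 9499), FH in fed gilt 1 (8046, others 5181 to 5959), PCK2 in fed gilt 2 (4157, others 2061 to 2632) and PLIN2 in fed gilt 6 (153.3, others 270 to 342).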

How the results depend on the processing

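Counts of calls moved more than directions. Of 71 named genes that were called, 46 stayed called in each of the 12 fits without 1 N298 liver array and 41 in each of the 28 alternatives. Without trend in eBayes 223 probe sets were called in place of 355 (111 higher and 112 lower), with 105 genes in place of 169 and 41 list genes in place of 63. With arrays centred on their medians, 427 probe sets were higher and 104 lower, with 287 genes. Array weights gave 513 probe sets, 254 higher and 259 lower. Leaving out a replicate number or 1 array gave 174 to 336 probe sets (91 to 166 higher, 83 to 170 lower), 84 to 171 genes and 33 to 56 list genes. The lowest of each came without replicate number 3. Leaving out any other number also leaves 20 arrays in place of 24, and gave 211 to 271 probe sets. The cause of these changes was not tested. The genotype difference stayed at 0 calls in each of its alternatives.

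Without the replicate block 363 probe sets were called in N298 liver (186 genes), 390 in D298 liver in place of 391 and 3408 in N298 fat in place of 3718, and with it as a random block 383 in N298 liver. Of the named genes called, BCKDHB, GLUL, DGAT1 and ORM1 lost their calls both with no replicate block and with the random block. The tissue difference gave 1669 without the gilt block in place of 2072. Fasted and fed N298 livers with the same number had residual correlations of 0.21, 0.040, 0.047, -0.023, 0.077 and 0.087, so the numbers were kept only because the submitters describe blocks.

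Signs turned only in named genes that were not called. MC4R read 0.039 after quantile normalization and -0.96 to 0.45 over the fits that left out arrays. PCK1 read -0.063 to 0.20 over those fits, PDK4 -0.078 to 0.12 (-0.055 after quantile normalization, -0.014 with array weights), ANGPTL4 -0.21 to 0.13 (-0.022 with array weights) and SMAP2 -0.19 to 0.011 (0.041 with centred arrays). The medians of several lists near 0, such as glycolysis (-0.02), changed sign when arrays were centred (0.09). The search for promoter motifs was not run. Dim genes such as NNAT and PNPLA3 carry folds that depend on signals near the array's floor.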
